A study of Homo sapiens with 4 samples.

Results

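The tetraspanin family was followed in ribosome footprints of PANC-1 cells, a long-established line from a human pancreatic ductal carcinoma, in cultures labelled FBXO32 depleted and in negative control cultures. Its members were taken from the 20307 genes of the table by name. They were the protein-coding genes called TSPAN with a number, together with CD9, CD37, CD53, CD63, CD81, CD82, CD151, UPK1A and UPK1B, which gave 31 genes. There were 2 libraries a group, called bioreplicates in the labels, and both groups were PANC-1 cells at the same confluency that received cycloheximide before lysis. FBXO32 is the F-box subunit of a ubiquitin ligase. How FBXO32 was depleted, and whether the depleted cells were a clone or a pool, is stated in no source used here. The retinal family members PRPH2 and ROM1 lie outside the naming rule. PRPH2 was listed at 0 TPM in all libraries, and ROM1 had 1.75 and 0.156 TPM in the controls against 1.13 and 0.228 TPM after depletion.

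Tetraspanins are small membrane proteins that span the membrane repeatedly. They bind one another and a set of partner receptors, proteases and integrins in what is called the tetraspanin web, and through it they act in adhesion, cell fusion, receptor trafficking and vesicle release. CD9, CD63 and CD81 are the usual markers of extracellular vesicles, CD151 holds laminin-binding integrins, and the TspanC8 subgroup escorts the protease ADAM10 to the cell surface. CD82 is known as a suppressor of metastasis. TSPAN1 and TSPAN8 have been studied as genes raised in pancreatic and other carcinomas.

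The family is recognised by a run of neighbouring cysteine, cysteine and glycine codons in its large extracellular loop, and these codons were read in the members' coding sequences to check the naming rule. The motif searched was 2 codons that are each TGT or TGC, then GGN, in the reading frame of the longest complete coding sequence of each gene in GENCODE 29 on GRCh38. All 31 members held it, against 2.64% of the other 19432 coding sequences. In 23 members it occurred a single time, and in the others the copy nearest the usual place was taken. That copy lay at 0.465 to 0.705 of the way along the coding sequence. Its cysteine codons were spelled TGCTGT in 20 members, TGCTGC in 6 and TGTTGT in 5. The stretches below are those of the 4 members with the most footprints and of those that rose after depletion, and show the family's signature in the genes that the results turn on. Each runs 5′ to 3′ on the coding strand, with the motif in capitals.
CD151: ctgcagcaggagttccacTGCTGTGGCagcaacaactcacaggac
CD63: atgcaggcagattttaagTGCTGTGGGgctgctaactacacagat
CD81: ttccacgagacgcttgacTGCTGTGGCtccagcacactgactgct
CD9: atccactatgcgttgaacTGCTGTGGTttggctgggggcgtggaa
TSPAN13: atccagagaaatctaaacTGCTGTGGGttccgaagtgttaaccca
TSPAN3: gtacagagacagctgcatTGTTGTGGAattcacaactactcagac
TSPAN14: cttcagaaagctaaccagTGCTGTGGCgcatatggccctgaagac
TSPAN6: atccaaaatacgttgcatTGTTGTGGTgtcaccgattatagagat
CD82: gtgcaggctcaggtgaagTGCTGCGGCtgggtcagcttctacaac
The motif codons of CD151 lie at chr11:837466-837474 on the plus strand, those of CD81 at chr11:2395875-2395883 and those of CD82 at chr11:44618168-44618176. CD63 carries them at chr12:55726247-55726255 on the minus strand and CD9 at chr12:6235482-6235490. For TSPAN13 they are at chr7:16777867-16777875, for TSPAN14 at chr10:80512150-80512158, and for TSPAN3 and TSPAN6, both on the minus strand, at chr15:77052915-77052923 and chrX:100633525-100633533. Each lies unbroken in 1 coding exon.

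The values are TPM, a gene's length-scaled share of a library, so members can be set side by side, while the read depth behind a value is unknown. A footprint level reflects mRNA level and translation together. A lower share of a library cannot be told apart from a rise of other genes, nor a higher share from a fall of other genes. In cultures measured in bulk, fewer cells that carry a gene's footprints and fewer footprints per cell cannot be told apart either. FBXO32 had 18.1 and 21.6 TPM in control cells and lower values, 14.3 and 12.9 TPM, in depleted ones, a difference that missed the threshold (limma adjusted p = 0.429). Depletion is therefore known from the labels and the column names. Of the 7 markers of an epithelial carcinoma line, KRT18 (362 to 1251 TPM), VIM (477 to 1837 TPM) and KRT8 (120 to 506 TPM) were abundant. These 3 fell (limma adjusted p = 0.0402, 0.00844 and 0.00574), each was lowest in depleted replicate 2, and without that library none of them passed (limma adjusted p = 0.842, 0.633 and 0.512), nor without either control (0.133 to 0.447). EPCAM (1.87 and 3.64 TPM against 7.68 and 6.09 TPM), CDH1 and KRT7 (0.885 to 5.52 TPM) were low and higher in both depleted libraries, without passing. With the coding-length trend removed CDH1 passed (1.58, limma adjusted p = 0.0096), and EPCAM and KRT7 did not (0.0562 and 0.0692). In that fit KRT8 was still lower (limma adjusted p = 0.0364), and the calls of KRT18 and VIM ended (0.109 and 0.0513). KRT19 overlapped. The 7 leukocyte markers used together had 2.76 to 5.93 TPM a library, with PTPRC and CD3E listed at 0 throughout. The 4 fibroblast markers summed to 111 and 87.7 TPM in the controls and to 35.5 and 39.0 TPM after depletion, nearly all of it COL1A1, which fell (limma adjusted p = 0.00578) but not with the coding-length trend removed (0.381). The 3 endothelial markers together stayed at or below 0.33 TPM. The part of these markers in the tetraspanin values was not tested. Across genes, control replicate 1 and depleted replicate 2 were the least alike (Pearson correlation 0.835), and control replicate 2 was close to depleted replicate 1 (0.921).

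Footprints of the family were concentrated on a few members. CD151, the partner of laminin-binding integrins (ENSG00000177697, chromosome 11, 832843 to 839831), led with 821 and 997 TPM in the controls, rank 189 of the 20307 genes. CD63, a late endosome and vesicle protein (ENSG00000135404, chromosome 12, 55725323 to 55729707), followed with 689 and 713 TPM. CD81 (ENSG00000110651, chromosome 11, 2376177 to 2397419), a widely expressed surface tetraspanin, had 422 and 756 TPM. The control libraries of CD151 did not overlap those of CD63, whereas those of CD63 lay inside the range of CD81. CD9, the partner of the growth factor precursor HBEGF (ENSG00000010278, chromosome 12, 6199715 to 6238271), came next with 235 and 312 TPM, below both values of CD81. Below it stood TSPAN4, a protein of migrasomes, with 179 and 203 TPM. TSPAN15 (134 and 141 TPM) and TSPAN13 (85.9 and 137 TPM) overlapped each other. Only these 7 members had a control mean of at least 100 TPM, and 12 had one of at least 10 TPM. After depletion CD151 (1289 and 1479 TPM) and CD63 (1045 and 1369 TPM) overlapped, as did CD63 and CD81 (1035 and 1120 TPM).

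**Figure D1:**
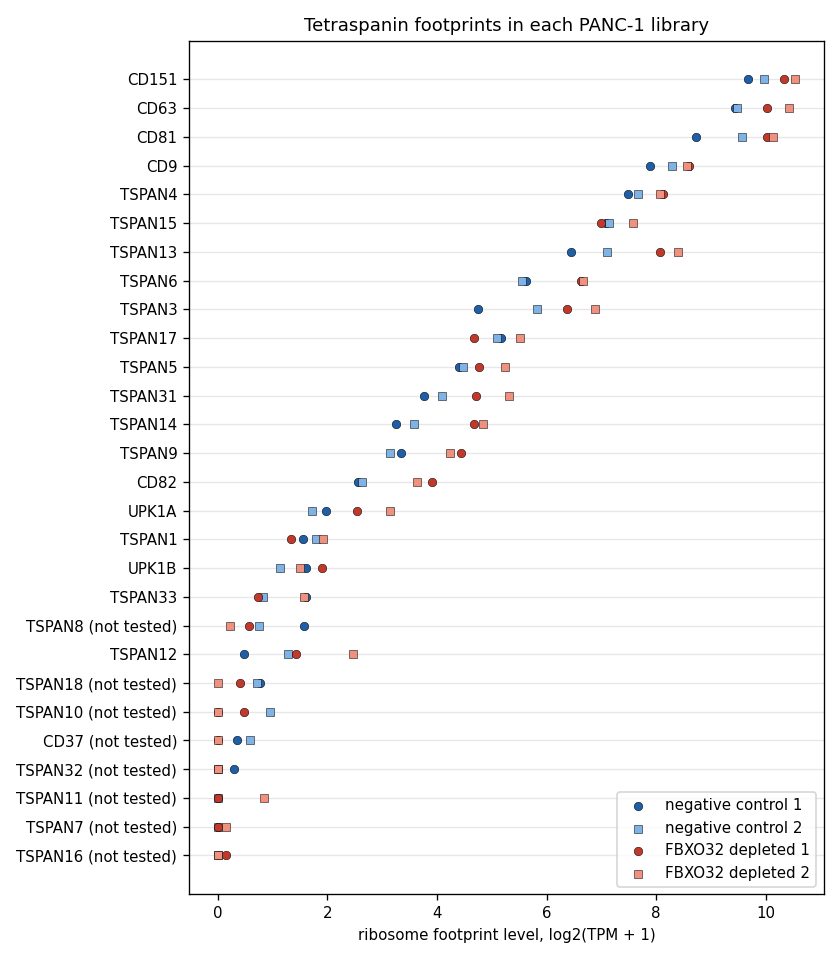
Footprint level of each tetraspanin gene above 0 in some library, as log2(TPM + 1), with 1 point per library and the genes ordered by control mean. Blue points are the negative controls and red points the FBXO32-depleted libraries. CD151 is highest in the controls at 821 and 997 TPM, and in 15 of the 20 tested genes both red points lie to the right of both blue ones.

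The low end of the family held the members known from blood, nerve, eye and other tissues. Of the 31 genes, 20 had 1 TPM or more in a minimum of 2 libraries and entered the test, and 11 did not. None of the 20 (0) was admitted through values in 1 group alone, and 18 had at least 1 TPM in every library. CD53, a leukocyte tetraspanin, TSPAN2, known from oligodendrocytes, and TSPAN19 were listed at 0 in all 4 libraries. CD37, also a leukocyte gene, had 0.271 and 0.504 TPM in the controls and was listed at 0 after depletion. TSPAN8 had 1.96 and 0.682 TPM in the controls against 0.488 and 0.166 TPM after depletion, and TSPAN18 had 0.699 and 0.65 TPM against 0.33 TPM and a listed 0. In TSPAN8, TSPAN18 and CD37 the groups did not overlap, with the depleted libraries lower, but none of them reached the level needed for the test. Among all tested genes 37.6% had the groups apart in that direction. TSPAN10, TSPAN32, TSPAN11, TSPAN7 and TSPAN16 were above 0 in 1 or 2 libraries, and none of them exceeded 0.924 TPM.

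Family footprints made up a larger share of the depleted libraries. The summed TPM of the 31 genes came to 0.274% and 0.346% of a control library but 0.475% and 0.555% of a depleted one, so the groups did not overlap. CD151, CD63, CD81 and CD9 together supplied between 78.2% and 80.2% of the family sum in every library. CD151 alone gave 29.9% and 28.8% of it in the controls and 27.1% and 26.6% after depletion. The make-up of the family at its top was thus similar in the 4 libraries while its sum was higher after depletion, although CD81 gave 15.4% in control replicate 1 and 20.2% to 21.8% in the other libraries. The sum itself was not tested.

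Of the 20 tested members, 6 rose after depletion, 0 fell and 14 did not pass (limma on log2(TPM + 1), Benjamini-Hochberg adjusted p under 0.05 over all 11623 tested genes). The 6 make up 30% of the tested members, against 6.21% of all tested genes called higher and 19.5% called lower. At an unadjusted p under 0.05, 11 of the 20 members were higher and 0 lower, against 1374 and 2956 of all 11623 tested genes. The median log2 fold change was 0.85 for the tested members and -0.16 for all tested genes. The fold change was above 0 in 17 of 20 members (85%, against 43.7% of all tested genes). Both depleted libraries lay above both controls in 15 of 20 (75%, against 26.8%), the groups overlapped in 5, and in 0 did they lie below (37.6% of all tested genes). Scaling the libraries by median ratios moved the median of all genes to 0.02. All genes then split into 1251 higher and 1904 lower calls, in place of 722 and 2268, and 10 members rose (50%, against 10.8% of all genes).

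**Figure D2:**
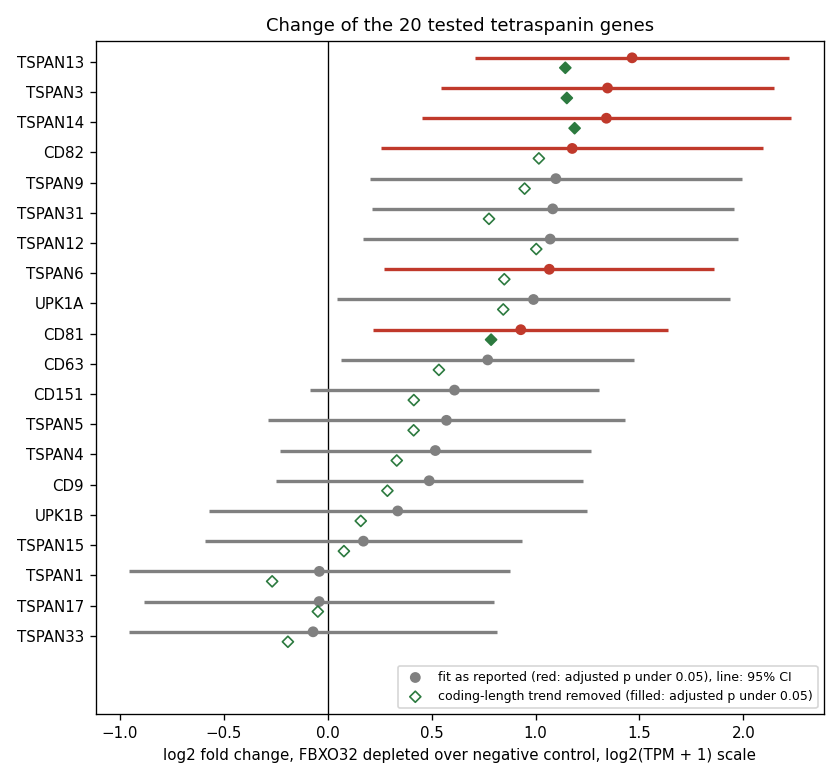
Log2 fold change of the 20 tested tetraspanin genes, FBXO32 depleted over negative control, on the log2(TPM + 1) scale. Circles with 95% confidence intervals are the fit of all 4 libraries (red for adjusted p under 0.05) and diamonds the fit after the coding-length trend was removed (filled for adjusted p under 0.05). TSPAN13 stands highest at 1.46, and the 3 genes just below 0 turn above it with median-ratio scaling.

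Outside the vesicle markers, the TspanC8 subgroup and the uroplakins, TSPAN13, TSPAN3, TSPAN6 and CD82 rose. TSPAN13, reported to bind voltage-gated calcium channels (ENSG00000106537, chromosome 7, 16753535 to 16784536), had 85.9 and 137 TPM in the controls against 268 and 338 TPM after depletion. Its groups were well apart, and its log2 fold change of 1.46 ± 0.38 (SE) was the largest in the family (limma adjusted p = 0.00137). In the depleted libraries its level thereby passed that of TSPAN15 (127 and 189 TPM), which it overlapped in the controls, and reached that of TSPAN4 (278 and 268 TPM). TSPAN3 (ENSG00000140391, chromosome 15, 77041404 to 77083984) had 25.8 and 55.7 TPM in the controls against 82.0 and 117 TPM after depletion. The control libraries of TSPAN3 differed between themselves by more than the gap between the groups, and the log2 fold change was 1.35 ± 0.41 (limma adjusted p = 0.00696), or 0.81 without negative control replicate 1, where the call ended (0.418). TSPAN6, reported to act on RIG-I-like receptor signalling and on vesicle cargo (ENSG00000000003, chromosome X, 100627109 to 100639991), had 48.1 and 45.8 TPM against 98.1 and 100.8 TPM. Both pairs of TSPAN6 replicates were close, and the log2 fold change stood at 1.07 ± 0.41 (limma adjusted p = 0.0372).

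TSPAN31, a gene amplified in sarcomas, TSPAN9, known from platelets, and TSPAN4 did not pass. TSPAN31 had 12.6 and 16.0 TPM in the controls against 25.1 and 38.6 TPM after depletion (log2 fold change 1.08 ± 0.44, limma adjusted p = 0.0554). TSPAN9 had 9.15 and 7.83 TPM against 20.8 and 17.9 TPM (1.10 ± 0.46, limma adjusted p = 0.0593). In both the groups were apart, and both passed with the libraries scaled by median ratios. TSPAN4 had 179 and 203 TPM against 278 and 268 TPM, a log2 fold change of 0.52 ± 0.38 whose 95% confidence interval ran from -0.23 to 1.26. TSPAN12, a co-receptor of Norrin signalling through FZD4, had 0.384 and 1.42 TPM against 1.68 and 4.51 TPM (1.07 ± 0.46, limma adjusted p = 0.069, or 0.0358 with median-ratio scaling). TSPAN1 had 1.93 and 2.46 TPM in the controls against 1.54 and 2.78 TPM after depletion, so its groups overlapped.

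Of the 3 vesicle markers, CD81 rose, and CD63 and CD9 were above their controls in both depleted libraries without passing the test. CD81 went from 422 and 756 TPM to 1035 and 1120 TPM (589 ± 236 to 1077 ± 60.0 TPM, SD, n = 2). Its controls spread widely, and the estimate, on the log2 scale, was 0.93 ± 0.36 (limma adjusted p = 0.0424), or 0.51 without negative control replicate 1 and 1.35 if replicate 2 of the controls was dropped instead, neither of them past the threshold. CD63 had 689 and 713 TPM against 1045 and 1369 TPM (log2 fold change 0.77 ± 0.36, limma adjusted p = 0.0975). CD9 had 235 and 312 TPM against 385 and 376 TPM (0.49 ± 0.38, limma adjusted p = 0.352), with an interval of -0.25 to 1.23. Whether the 3 markers differed from one another in their change was not tested. CD151 had 821 and 997 TPM against 1289 and 1479 TPM (log2 fold change 0.61 ± 0.36, limma adjusted p = 0.199, interval -0.09 to 1.31).

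CD82, also called KAI1, rose from a low level. It (ENSG00000085117, chromosome 11, 44564427 to 44620363) had 4.89 and 5.23 TPM in the controls against 14.1 and 11.4 TPM after depletion. The replicates of each group were close, and the log2 fold change was 1.18 ± 0.47 (limma adjusted p = 0.0479). Its chromosomal neighbour among the members, TSPAN18, begins 106101 bp away and was too low to be tested. CD151 and TSPAN4 are 2976 bp apart on chromosome 11 and CD81 and TSPAN32 57976 bp apart, and TSPAN32 had 0.23 TPM in 1 control library and was listed at 0 in the rest. Coding exons of the tested members overlapped those of another gene of the table only for UPK1B, whose value is therefore uncertain.

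In the TspanC8 subgroup, TSPAN14 rose and the other tested members, of which TSPAN15, TSPAN17 and TSPAN5 were more abundant, did not pass. These proteins share ADAM10, the sheddase that cuts Notch receptors and cadherins. TSPAN14 (ENSG00000108219, chromosome 10, 80454166 to 80533123) had 8.58 and 10.9 TPM in the controls against 24.5 and 27.7 TPM after depletion, groups far apart for their spread. The log2 fold change of TSPAN14 was 1.34 ± 0.45 (limma adjusted p = 0.0169). TSPAN15 had 134 and 141 TPM against 127 and 189 TPM, and TSPAN17 had 35.1 and 33.1 TPM against 24.5 and 44.6 TPM. Both overlapped between groups, with log2 fold changes of 0.17 ± 0.39 (interval -0.59 to 0.93) and -0.04 ± 0.43 (interval -0.88 to 0.80). That of TSPAN17 turned to 0.16 with median-ratio scaling. TSPAN5 had 20.1 and 21.2 TPM against 26.3 and 37.0 TPM (0.57 ± 0.44, limma adjusted p = 0.35), and TSPAN33 overlapped at 0.658 to 2.06 TPM. Differences between members of the subgroup were not tested. ADAM10 itself had 26.98 and 35.2 TPM in the controls against 58.7 and 53.3 TPM after depletion and did not pass (log2 fold change 0.84 ± 0.42, limma adjusted p = 0.128). With the coding-length trend removed ADAM10 passed (1.46, limma adjusted p = 0.00486).

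The uroplakins UPK1A and UPK1B, tetraspanins of the bladder lining that pair with UPK2 and UPK3A, were low. UPK1A had 2.93 and 2.31 TPM in the controls against 4.82 and 7.81 TPM after depletion (log2 fold change 0.99 ± 0.48, limma adjusted p = 0.116, or 0.0492 with median-ratio scaling). UPK1B had 2.05 and 1.18 TPM against 2.73 and 1.84 TPM, which overlapped. UPK3A was listed at 0 in all libraries, and UPK2 reached 0.124 and 1.06 TPM after depletion from a listed 0 in each control. The 3 urothelial markers together had 0.423 and 1.18 TPM in the controls against 3.07 and 2.78 TPM after depletion. Their part in the values of UPK1A was not tested.

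The members share short coding sequences, and short genes as a whole were higher in the depleted libraries. The 20 tested members had longest coding sequences of 615 to 999 nt, against a median of 1380 nt over all tested genes. Over 10 bins of coding length with nearly equal numbers of genes, the median log2 fold change of all tested genes went from 0.58 in the shortest (up to 528 nt) to -0.95 in the longest (from 3417 nt). In the bin of 738 to 948 nt, which held 15 of the 20 members, it was 0.16. Over the 2140 tested genes of 615 to 999 nt the median was 0.20, 8.32% were called higher and 8.69% lower, 39.1% had both depleted libraries above both controls and 61.3% had a fold change above 0. The members' own shares were 30% called higher, 75% with the groups apart in that direction and 85% above 0, and the difference was not tested.

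With the trend against coding length removed from each library, 4 members still rose (20%, against 7.97% of all tested genes then called higher), all of them among the 6, and 0 fell. At an unadjusted p under 0.05, 9 were higher and 0 lower, a level at which all genes were not counted in this fit. TSPAN13 was at 1.14 (limma adjusted p = 0.00819), TSPAN14 at 1.19 (limma adjusted p = 0.026), TSPAN3 at 1.15 (limma adjusted p = 0.0267) and CD81 at 0.79 (limma adjusted p = 0.0379). The calls of CD82 and TSPAN6 ended (limma adjusted p = 0.0629 and 0.0704). The members' median log2 fold change was then 0.66, against 0.03 for all genes. Whether depletion itself acts on footprints by gene length cannot be told apart from a technical trend here. In base composition the 6 that rose covered nearly the whole range of the family, with G or C as the last base of 42.7% to 85.4% of codons, against 42.7% to 88.4% for all tested members.

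**Figure D3:**
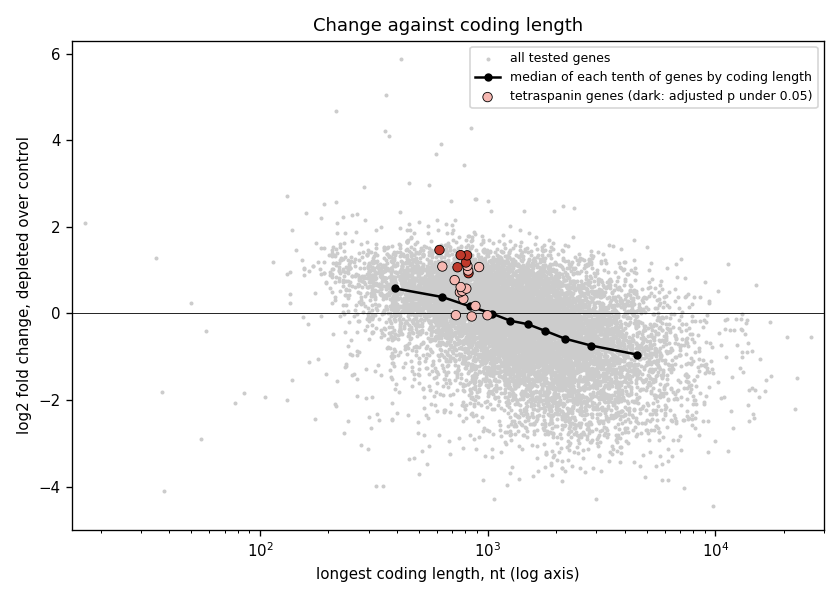
Log2 fold change, FBXO32 depleted over negative control, against the longest coding length of each tested gene on a log axis. Grey points are all tested genes with a coding length, the black line joins the median of each of 10 length bins, and red points are the tetraspanins (dark for adjusted p under 0.05). The line falls from 0.58 to -0.95, and the tetraspanins crowd between 615 and 999 nt, most of them above the line.

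The calls rested on few libraries and on the settings of the test. Without the filter on low values 1 of 28 members rose, TSPAN13 (1.37% of all genes). In that fit 10 members were higher and 2 lower at an unadjusted p under 0.05, where all genes were not counted. Without the variance trend 4 rose (5.64%), without robust moderation 5 (6.06%) and 3 when the replicate number was fitted as a block, namely TSPAN13, TSPAN14 and TSPAN3 (4.21%). Without negative control replicate 1, 0 members passed (0.318% of all genes then called higher), with 4 higher and 0 lower at an unadjusted p under 0.05, and the adjusted p of the 6 ran from 0.207 for TSPAN13 to 0.563 for CD81. Without negative control replicate 2, TSPAN13 and TSPAN3 passed (2.51% of all genes), and without depleted replicate 2, TSPAN13 alone (1.50%), with TSPAN14 at an adjusted p of 0.095 and TSPAN3 at 0.116. Without depleted replicate 1, 5 members rose (5.56% of all genes), of which 3 were among the 6, and TSPAN31 and TSPAN12 joined them. In each of these fits the lone library of a group is assumed to vary like those of the other group, and fewer libraries enter. In these fits 16 to 20 of the 20 fold changes were above 0. The members' median lay between 0.56 and 0.98, and that of all genes between -0.32 and -0.0014. In the 15 members whose depleted libraries both lay above both controls, leaving out a library cannot turn the sign. The count above 0 and the sign of the members' median were thus largely fixed beforehand and add no support. The log2 fold changes of CD82 (1.04 to 1.32), TSPAN6 (1.03 to 1.10) and TSPAN9 (0.99 to 1.20) moved least among those above 1, although none of the 3 passed in any of the 4 fits.

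**Figure D4:**
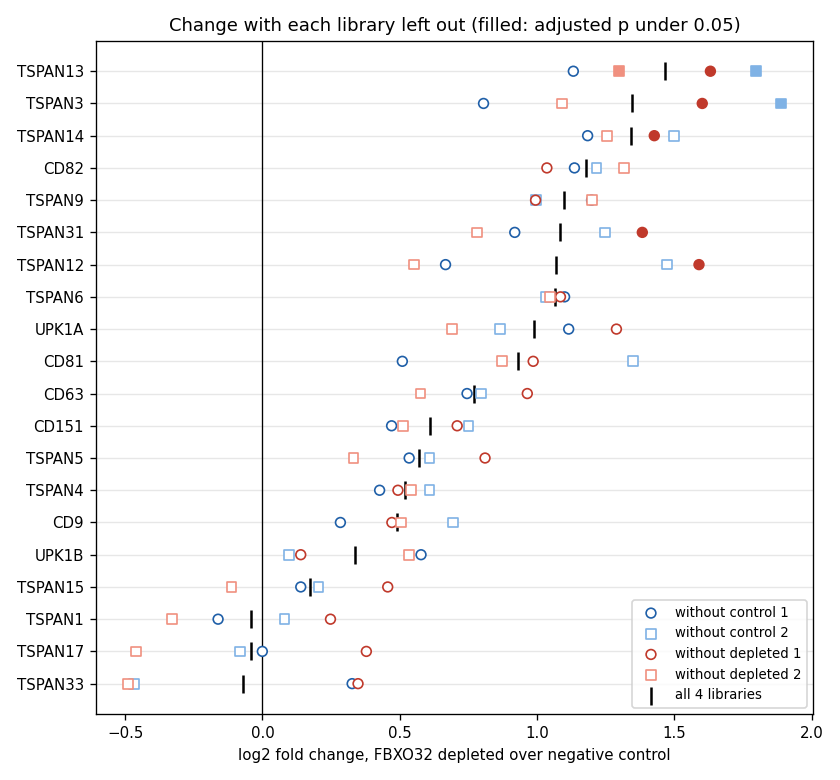
Log2 fold change of each tested tetraspanin gene with all 4 libraries (black tick) and with each library left out (points, filled for adjusted p under 0.05). TSPAN13 spans 1.13 to 1.80 and is filled in 3 of the 4 fits, and no point is filled without negative control replicate 1.

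Calls among the partners of the tetraspanins were few. Of 19 genes of the tetraspanin web, 17 were tested, and the median log2 fold change was 0.35. Only ITGB1 rose and only CD44 fell, 1 gene each way, and 15 missed the threshold, where 6.21% of all tested genes were called higher and 19.5% lower, so these counts do not stand above the background. ITGB1, the integrin beta 1 subunit, which is found with CD151 and CD9, rose from 507 and 954 TPM to 1225 and 1427 TPM (0.93 ± 0.36, limma adjusted p = 0.0411). CD44, a hyaluronan receptor, fell from 2960 and 2219 TPM to 1338 and 1258 TPM (-0.98 ± 0.35, limma adjusted p = 0.0243). The call of CD44 was lost once the coding-length trend was taken out (limma adjusted p = 0.284) and without each single library (0.0671 to 0.349). When single libraries were dropped, the call of ITGB1 held only without negative control replicate 2. ITGB1 also passed after subtraction of the length trend, at a log2 fold change of 1.59 (adjusted p = 0.0042 in limma). IGSF8, the immunoglobulin partner of CD9 and CD81, had 5.74 and 9.21 TPM against 16.0 and 17.1 TPM (1.08 ± 0.46, limma adjusted p = 0.0665). TIMP1, which binds CD63, had 181 and 279 TPM against 410 and 433 TPM and did not pass (limma adjusted p = 0.0593). HBEGF, the partner of CD9, had 5.82 and 8.25 TPM against 5.52 and 7.34 TPM. ITGA3, an integrin subunit of the list, was lower, at 228 and 142 TPM against 96.4 and 119 TPM (-0.75 ± 0.39, limma adjusted p = 0.145). Of the 17 tested partners, 8 had both depleted libraries above both controls and 3 had them below (26.8% and 37.6% of all tested genes). With the coding-length trend removed, 5 partners rose (7.97% of all genes), ADAM10, IGSF8, ITGA6 and ITGB1 among them. In that fit 0 fell (limma, 0 also at an unadjusted p under 0.05).

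Of 13 ADAM10 substrates and gamma-secretase genes, which share ADAM10 and CD44 with the web list, 12 were tested, 2 rose, 3 fell and 7 did not pass (median log2 fold change 0.11), beside 6.21% higher and 19.5% lower over all genes. APH1A and PSENEN, subunits of gamma-secretase, the protease that follows ADAM10, rose. APH1A had 57.9 and 80.0 TPM in the controls against 124 and 191 TPM after depletion (limma adjusted p = 0.0181), and PSENEN had 65.0 and 127 TPM against 159.5 and 205 TPM (limma adjusted p = 0.048). APP, the amyloid precursor, fell from 1641 and 1182 TPM to 739.6 and 584 TPM (limma adjusted p = 0.0146). CDH2, N-cadherin, fell from 3.65 and 3.10 TPM to 0.668 and 0.704 TPM (limma adjusted p = 0.0164), and CD44 fell as given above. In all of these the groups were apart. Among the fits with a single library left out, the calls of APH1A, PSENEN and APP held only without depleted replicate 1. That of CDH2 was lost without each single library in turn. With the coding-length trend removed, 4 of the list rose (7.97% of all genes), ADAM10, APH1A and CDH1 among them. The calls of PSENEN (log2 fold change 0.36 in place of 0.98, limma adjusted p = 0.45), APP (limma adjusted p = 0.214) and CDH2 (limma adjusted p = 0.302) ended. In that fit 0 fell (limma, 0 also at an unadjusted p under 0.05).

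Of 18 genes of extracellular vesicle formation, 1 rose, 2 fell and 15 did not pass (median log2 fold change 0.15), not more than the 6.21% and 19.5% of all genes called higher and lower. RAB27B, a GTPase of vesicle release, rose from 54.2 and 69.1 TPM to 136 and 124 TPM (1.07 ± 0.40, limma adjusted p = 0.033). HGS, an ESCRT subunit that sorts ubiquitinated cargo, fell from 596 and 274 TPM to 59.4 and 51.3 TPM (-2.85 ± 0.39, limma adjusted p = 3.12e-11). VPS4B, the ATPase that takes ESCRT apart, fell from 72.9 and 37.1 TPM to 13.2 and 4.44 TPM (-2.59 ± 0.45, limma adjusted p = 2.42e-07). HGS passed without each single library, while VPS4B lost its call when negative control replicate 1 was dropped (limma adjusted p = 0.0814). RAB27B lost its call without each single library in turn (limma adjusted p = 0.0881 to 0.34) and with the coding-length trend removed (0.082).

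The L6 family, whose proteins resemble tetraspanins in outline but are not related to them, was short too, with a median coding length of 609 nt among its 3 tested genes. Of these 0 rose and 0 fell (limma), beside 6.21% higher and 19.5% lower over all genes. At an unadjusted p under 0.05, 2 were higher and 0 lower, against 1374 and 2956 of all 11623 tested genes. The median log2 fold change was 0.75. With the coding-length trend removed, 0 were higher even unadjusted (limma). TM4SF1, abundant in carcinomas, had 1694 and 2640 TPM in the controls against 3416 and 3703 TPM after depletion (limma adjusted p = 0.0902), and so was above every tetraspanin in each library. Of 11 DHHC palmitoyltransferases, the enzyme family that acylates tetraspanins, ZDHHC20 rose, 0 fell (limma, 0 also at an unadjusted p under 0.05) and 10 did not pass (median 0.37). Over all genes 6.21% were called higher and 19.5% lower. ZDHHC20 had 7.98 and 16.5 TPM against 22.7 and 30.7 TPM (limma adjusted p = 0.0488), a call that held with the coding-length trend removed (0.0355). Among the fits with a single library left out, it held only without depleted replicate 1. ZDHHC2, the enzyme known to act on CD9 and CD151, had 12.5 and 7.01 TPM against 9.72 and 15.7 TPM, which overlapped.

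**Figure D5:**
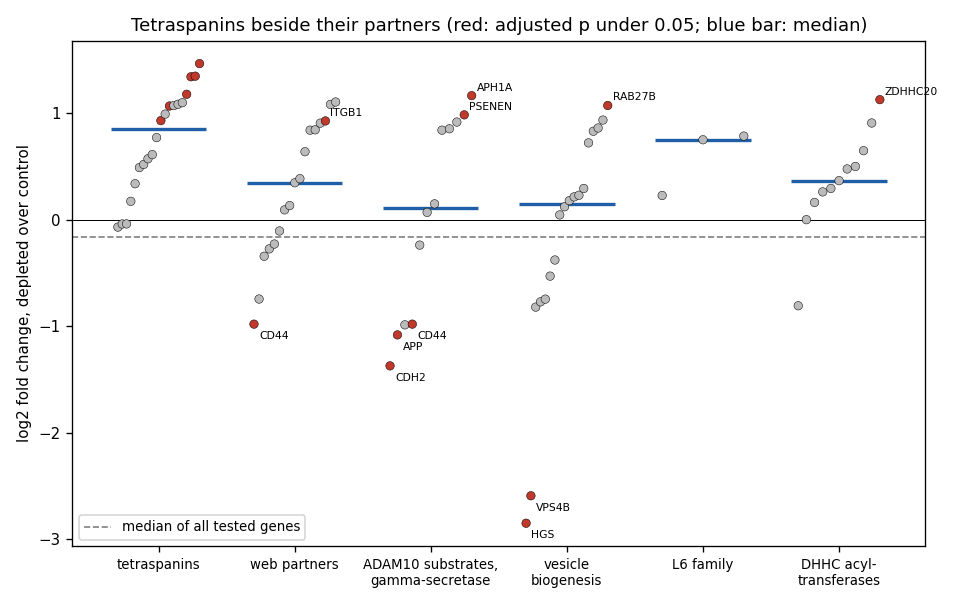
Log2 fold change, FBXO32 depleted over negative control, of each tested gene in the tetraspanin family and in 5 related lists, 1 point per gene (red for adjusted p under 0.05), with blue bars at list medians and a dashed line at the median of all tested genes. The tetraspanin median is 0.85, and the partner, substrate and vesicle lists hold red points on both sides of 0.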

How the data were processed

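Each of 4 libraries of ribosome-protected fragments (negative control and FBXO32 depleted, 2 each) had 1 deposited TPM value per gene. Per the labels' protocols, cells received 100 μg/mL cycloheximide for 2 min, lysates were digested for 45 min and fragments above 17 nt were kept. Tools and build, per the submitters' processing notes and without their roles, were GRCh38, STAR, RSEM, fastp, DESeq2 and Bowtie2 2.2.8. No source used here gives the annotation, the length behind the TPM values or any filtering. Columns headed KO were read as FBXO32 depleted, NS as negative control and their number as the bioreplicate number.

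Symbols came from a gene name table (19702 of 20307 genes), and positions and coding lengths from GENCODE 29 on GRCh38. log2(TPM + 1) was fitted by limma 3.58.1 (R 4.3.3) using a variance trend, robust moderation and no covariates, for genes that reached 1 TPM in 2 or more libraries. Benjamini-Hochberg adjustment ran over these genes (threshold 0.05). For 10272 of the 11623 genes the prior degrees of freedom were infinite, so a p-value rests mostly on a pooled spread and little on the gene's own replicates, which are not stated to be separate cultures. Errors are SE from limma or SD over 2 libraries. For the coding-length setting, a lowess curve (span 0.3) of each library's deviation from the gene mean against log2 coding length was subtracted for the 11525 tested genes with a length. Data of 11623 genes with this spread were simulated. Of 100 genes given a log2 change of 2, 82 were called, as were 7 of 100 changed by 1 and 8 of 11423 unchanged. Far fewer genes were changed in the simulation than were called in the data (722 higher and 2268 lower), which makes the adjustment stricter there. How often a change near 1 was missed in the data therefore cannot be read from these rates. The named genes are every member, list members past the threshold (all where 5 or fewer in a direction), FBXO32 and some further genes. Genes named for a known pairing with a member (ADAM10, IGSF8, TIMP1, HBEGF, ITGA3, ITGA6, TM4SF1, ZDHHC2) were chosen after their values were seen. So were the cell type markers named (the 7 of the carcinoma line, PTPRC, CD3E, COL1A1, UPK2 and UPK3A) and the family members outside the naming rule. A planned leukocyte marker is not reported here. Members and lists were chosen with earlier results of these data known.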

Additional observations from a re-analysis of the deposited data

How the results depend on the processing

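The number of tetraspanin genes that rose, 6 with the fit reported, was 10 with median-ratio scaling, 1 without the filter on low values, 3 with the replicate number as a block, and 0 to 5 with each library left out. None fell in any of these settings, nor with a minimum of 5 TPM, without trend, without robust moderation, with a pseudocount of 0.1 or after removal of the coding-length trend. Without the filter, 2 members were lower at an unadjusted p under 0.05. The members' median log2 fold change, 0.85, was 1.05 with median-ratio scaling, 0.50 without the filter (over 28 members), 0.66 once the coding-length trend was removed and 0.56 to 0.98 with each library left out. That of all genes, -0.16, was 0.015, -0.08, 0.032 and -0.32 to -0.0014. Over all genes, 1251 rose with median-ratio scaling, 207 rose and 1322 fell without the filter, 1476 fell with the coding-length trend removed, and 37 to 646 rose and 347 to 2389 fell with each library left out.

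Rises and falls among web partners numbered 5 and 0 with median-ratio scaling, 0 and 0 without the filter, 1 and 0 without the variance trend, 5 and 0 with the coding-length trend removed, and 0 to 1 and 0 with each library left out. No partner (0) rose with the replicate block. ADAM10 substrates and gamma-secretase genes that rose and fell numbered 4 and 1 with median-ratio scaling, 0 and 0 without the filter, 1 and 1 without the variance trend, and 4 and 0 after removal of the coding-length trend. Of them 1 rose with the replicate block, and 0 to 2 rose and 0 to 2 fell with each library left out. Vesicle genes that rose numbered 4 with median-ratio scaling, 0 without the filter, without the variance trend or with the replicate block, 2 with a minimum of 5 TPM or the coding-length trend removed, and 0 with each library left out, where 1 to 3 fell. Palmitoyltransferases that rose numbered 0 without the filter, without robust moderation or with the replicate block, and 0 to 1 with each library left out.

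With median-ratio scaling the log2 fold changes of TSPAN17, TSPAN1 and TSPAN33, just below 0, turned to 0.16, 0.11 and 0.063. With each library left out TSPAN17 ranged from -0.46 to 0.38, TSPAN1 from -0.33 to 0.25, TSPAN33 from -0.49 to 0.35 and TSPAN15 from -0.11 to 0.46. Of 235 values of single members under these settings, 31 lost a call and 6 gained one. Same-numbered libraries did not deviate together (correlation across genes -0.0488), so the numbers were not taken to pair the libraries. The causes of these shifts were not tested. TPM carries no depth, so the precision of low members such as CD82 cannot be judged.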
